A study of Homo sapiens with 12 samples.

Results

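The peaks described here are the binding sites of the RNA-binding protein NONO that the authors' annotation placed in 5′ untranslated regions (5′ UTRs) in 22Rv1 cells, a human prostate cancer cell line. The members are all peaks of 6 deposited peak lists whose annotated class is 5′ UTR, which gave 1342 of 26351 peaks. The choice used the annotation alone and no measured value. Each list comes from 1 eCLIP library, in which RNA crosslinked to NONO by UV light was immunoprecipitated, sequenced and set against the input of the same replicate. Cells were treated for 4 h with 20 µM SKBG-1(R), with 20 µM of its stereoisomer SKBG-1(S), or with the vehicle DMSO, and all 3 groups received 0.04% DMSO. Each group had 2 replicates, all from the same cell line, and 2 to 3 plates were grown per treatment. The labels do not state whether the replicates were grown separately, and p-values therefore cover the spread between lists alone, which may be technical.

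NONO belongs to the DBHS family of nuclear proteins, which pair with one another, bind RNA and take part in transcription, splicing, DNA repair and the building of paraspeckles around the long noncoding RNA NEAT1. A 5′ UTR is the part of an mRNA between its start and the start codon, and it holds elements that govern translation. Many human genes have several transcription starts, so bases that are 5′ UTR in one transcript can be intron in another, and a nuclear protein meets both on unspliced RNA.

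The 5′ UTR peaks of RHEB, LZTS2 and SMARCA4 recurred in 5 or 6 of the 6 lists, and a stretch of 30 nt from each, chosen by how many lists covered it and not by its letters, is shown as RNA-strand sequence in DNA letters, with runs of at least 3 G in capitals. All stretches are from GENCODE 29 transcripts on GRCh38.
RHEB: cGGGtctcgtctGGGGaagtgaggcggcgc
LZTS2: agtggcggcgcgcGGGccaGGGccGGGGcc
SMARCA4: GGGGtGGGtGGGGGGcccGGGccgcgtgga
The RHEB stretch is chr7:151519139-151519168 on the minus strand, the LZTS2 stretch chr10:100999830-100999859 on the plus strand and the SMARCA4 stretch chr19:10961392-10961421 on the plus strand. All 3 hold GGG, with 2, 3 and 4 separate runs in the order printed.

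Other stretches come from regions that held a 5′ UTR peak in both lists of a treatment and in no other list. ZADH2, PLXNB1, PMEPA1, LARP1 and UNKL were such regions for SKBG-1(R), and SBNO2 for DMSO. Those of SKBG-1(R) are only some of the stretches read for it, were picked by no stated rule and do not stand for the rest.
ZADH2: gcGGGGaaGGGGGGagccaGGGGGaGGGcg
PLXNB1: gcagcgccgcgcGGGaGGGGcGGGcagcgg
PMEPA1: gccgaGGGGaggccGGGGGGGcgcagcgga
LARP1: GGGGGaggcagcctcGGGcgcgcccggctt
UNKL: agcGGGccctcccttaggtgcgccccccgc
SBNO2: gcccccgagccccttggtgaccccgcaccc
These stretches are chr18:75209180-75209209 (minus), chr3:48429393-48429422 (minus), chr20:57709771-57709800 (minus), chr5:154755706-154755735 (plus), chr16:1379536-1379565 (minus) and chr19:1173735-1173764 (minus), in the same order. The SBNO2 stretch holds no run of GGG, nor does that of KCMF1, another such region for SKBG-1(R), and the ZADH2 stretch holds 4. Among the other SKBG-1(R) stretches not printed, those of DYRK1A, NPDC1 and TRIB3 hold 1 run each. Those of AKT2 and HDLBP hold 3 each. G and C made up 66.7 to 93.3% of the bases in all 16 stretches read this way.

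The number of 5′ UTR peaks followed the length of the list. There were 153 and 638 in the SKBG-1(R) lists of 1953 and 14847 peaks, 74 and 239 in the SKBG-1(S) lists of 1237 and 3967 peaks, and 54 and 184 in the DMSO lists of 669 and 3678 peaks (replicates 1 and 2 in each). The read depth behind the lists is not known here. As a share of the list they made up 7.83% (95% Wilson interval 6.72 to 9.11) and 4.30% (3.98 to 4.64) with SKBG-1(R), 5.98% (4.79 to 7.45) and 6.02% (5.33 to 6.81) with SKBG-1(S), and 8.07% (6.24 to 10.4) and 5.003% (4.34 to 5.76) with DMSO. The intervals cover counting error only. Replicates 1 of SKBG-1(R) and DMSO had the highest shares and replicates 2 of the same groups the lowest, so the groups overlapped.

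**Figure D1:**
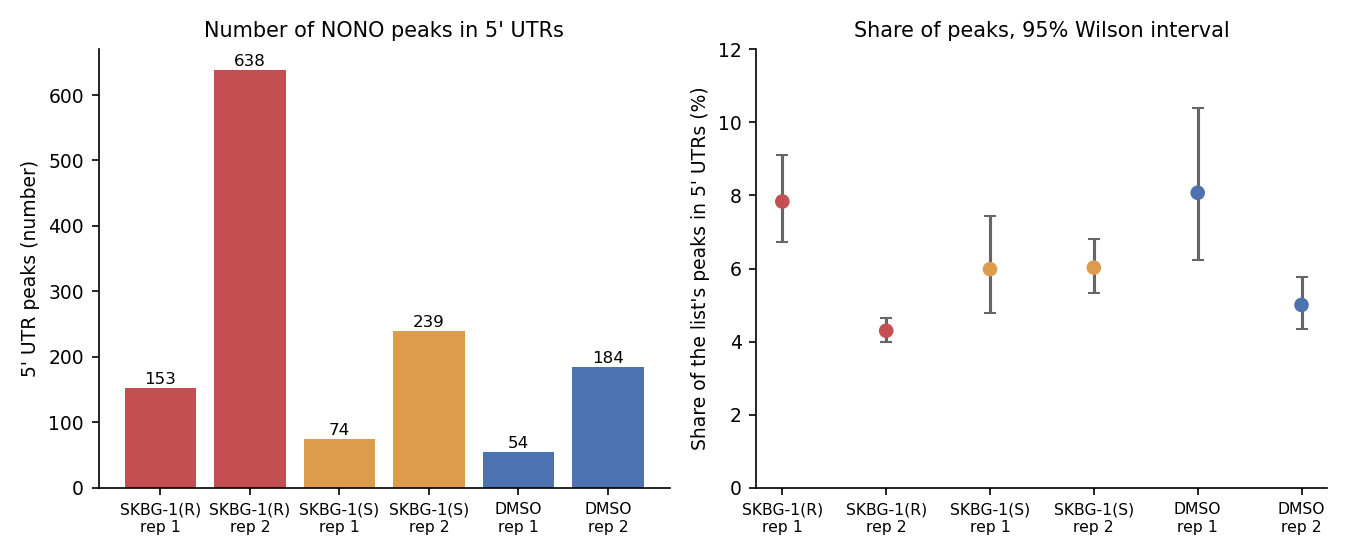
Number of 5′ UTR peaks in each peak list (left, bars) and their share of the list in percent (right, points with 95% Wilson intervals), for SKBG-1(R), SKBG-1(S) and DMSO. Replicate 2 of SKBG-1(R) holds 638 of the 1342 peaks but has the lowest share, 4.30%.

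SKBG-1(R) lists held 3.13 times as many 5′ UTR peaks as DMSO lists, a difference of 1.65 in the mean log2 number (8.29 ± 1.46 with SKBG-1(R), 6.64 ± 1.25 with DMSO, SD, n = 2 each), and the exact two-sided permutation p was 0.667. The ratio was 2.83 between lists of replicate 1 and 3.47 between lists of replicate 2. With 2 lists against 2 this test cannot give a p below 0.333. SKBG-1(S) lists held 1.33 times as many as DMSO lists (exact permutation p = 0.667). SKBG-1(R) lists held 2.35 times as many as SKBG-1(S) lists (exact permutation p = 0.667). Leaving out 1 list of a pair of groups at a time, the log2 difference was lowest at 0.62 without replicate 2 of SKBG-1(R) and highest at 2.68 without its replicate 1 for SKBG-1(R) against DMSO, and 0.20 and 2.26 without the same lists for SKBG-1(R) against SKBG-1(S). For SKBG-1(S) against DMSO it was -0.43 without replicate 2 of SKBG-1(S), -0.47 without replicate 1 of DMSO and at most 1.30, without replicate 2 of DMSO. All 3 ratios of numbers were below 1 when each list was cut to its 669 peaks of smallest p. The mean share was 6.07 ± 2.50% with SKBG-1(R), 6.00 ± 0.03% with SKBG-1(S) and 6.54 ± 2.17% with DMSO (SD, n = 2 each). For the share, SKBG-1(R) against DMSO gave an exact permutation p of 0.667, and it was 1 for SKBG-1(S) against DMSO and for the stereoisomers against each other. The share with SKBG-1(R) minus that with SKBG-1(S) was 0.06 percentage points, and leaving out 1 list at a time moved it between -1.71 and 1.83 points. This range shows how far leaving out a list moves the value and is not a confidence interval. The size of difference that 2 lists per group would miss was not tested.

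Few of these peaks were 5′ UTR in every transcript. The class name holds for at least 1 annotated transcript, but 1240 of the 1342 peaks (92.4%) also overlapped an annotated intron. Only 102 (7.60%) were 5′ UTR in every transcript that overlapped them and touched no intron. The intron could belong to another transcript or, for peaks that cross a splice site, to the labelling transcript itself. These cases were not told apart. Of all peaks, 817 (60.9%) overlapped an intron within 500 nt of a splice site and 423 (31.5%) deeper intron only. A median of 6 transcripts overlapped a peak, and for 895 peaks (66.7%) a single transcript gave the 5′ UTR label. A peak list cannot tell mature mRNA from unspliced RNA at the same bases.

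Peaks labelled 5′ UTR lay in first exons, near a transcript start. The first exon of the labelling transcript held 1308 peaks (97.5%), and the peaks lay at a median of 96 nt from that transcript's start. The class itself largely fixes this nearness, because a 5′ UTR begins at the transcript's start. The labelling transcripts' 5′ UTRs had a median length of 341 nt. No first-exon share of all 5′ UTR bases was set beside the share of peaks. The median distance from the start of the whole gene was 1876.5 nt, and only 35.6% of peaks were within 1000 nt of it, against 96.8% within 1000 nt of the labelling transcript's start. Of the 1342 peaks, 773 (57.6%) were wholly inside the 5′ UTR, 337 (25.1%) crossed the transcript's start into upstream bases, and 242 (18.0%) crossed the edge from exon into intron at a 5′ splice site. A 3′ splice site was crossed by 14 (1.04%). A first exon has no 3′ splice site, so the 1308 peaks in first exons could not be counted here. The numbers at 5′ and 3′ splice sites therefore do not show a preference for either. Peaks that cross the transcript's start or a splice site include bases that the spliced form of that transcript does not hold. Peaks across the 5′ splice site made up 18.3% and 15.05% with SKBG-1(R), 16.2% and 20.1% with SKBG-1(S), and 27.8% and 23.4% with DMSO. No test was made of these shares.

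**Figure D2:**
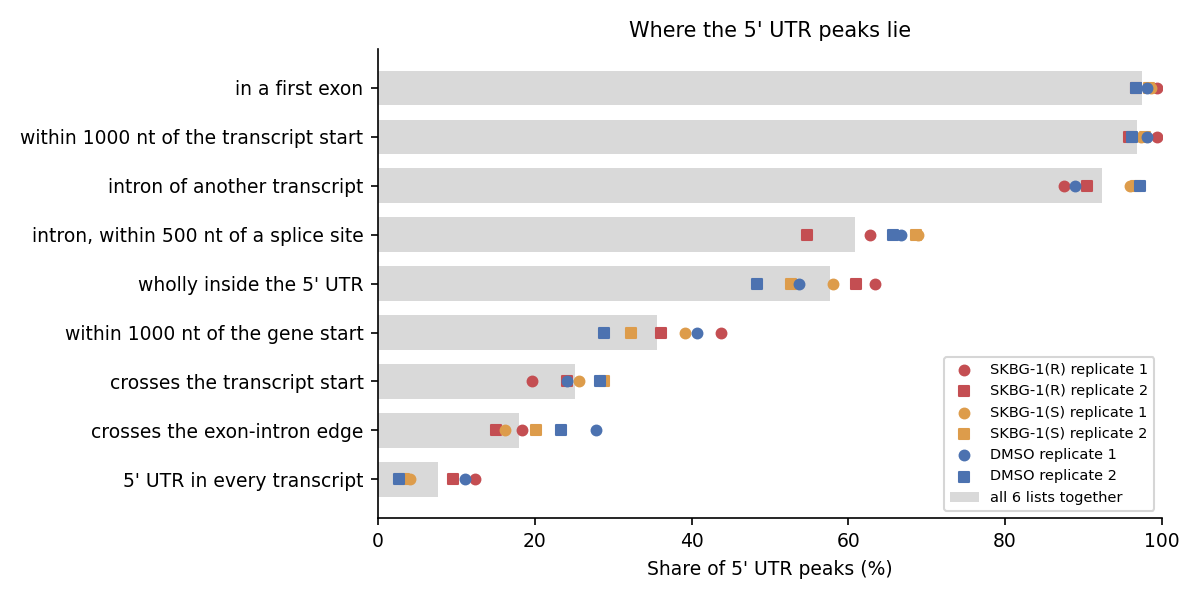
Share of 5′ UTR peaks, in percent, that meet each description of position; grey bars are all 6 lists together and points are single lists (circles replicate 1, squares replicate 2). Nearly all peaks lie in first exons (97.5%) and overlap an annotated intron (92.4%), and 7.60% are 5′ UTR in every transcript. The row named intron of another transcript counts any annotated intron, also one of the labelling transcript.

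The 102 peaks that every transcript placed in the 5′ UTR were 19 and 61 in the SKBG-1(R) lists, 3 and 8 in the SKBG-1(S) lists and 6 and 5 in the DMSO lists. CDK5R2, which encodes a neuronal activator of the kinase CDK5 and has a single transcript, held 10 of them, SOGA1 held 7 and SAMD11 held 5. These 3 genes were named after their counts were seen. The 10 CDK5R2 peaks, 3, 0, 2, 2, 3 and 0 in the 6 lists in the order above, were neighbouring slices of 5 to 21 nt that together covered chr2:218959723-218959757. The log2 enrichment over input there was 3.85 in replicate 1 of SKBG-1(R), 3.43 and 4.24 in the SKBG-1(S) lists and 4.85 in replicate 1 of DMSO. The 30 nt shared by those 4 lists run from chr2:218959727 to chr2:218959756 on the plus strand and hold 2 runs of G.
CDK5R2: taggccccccaccgccGGGtcccccGGGGc

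Peaks were often cut into neighbours. In all, 405 of the 1342 (30.2%) touched another 5′ UTR peak of the same list, and joining peaks within 50 nt of each other left 1007. The EEF1A1 peaks are an extreme case. EEF1A1 encodes the translation elongation factor that delivers tRNA to the ribosome, and its mRNA is a classical terminal oligopyrimidine (TOP) mRNA. Its 10 peaks, 4 and 0 with SKBG-1(R), 3 and 3 with SKBG-1(S) and 0 and 0 with DMSO, were slices of 2 to 13 nt of a single 22-nt stretch, chr6:73521173-73521194. All slices of a list had the same enrichment, 5.44 in replicate 1 of SKBG-1(R) on the log2 scale. With SKBG-1(S) it was 3.16 and 4.36. The authors' −log10 p reached its cap of 400 in replicate 1 of SKBG-1(R). The stretch is 5′ UTR in 1 of 4 overlapping transcripts, and whether that transcript is the TOP form was not examined. The 19 nt shared by the 3 lists, chr6:73521175-73521193 on the minus strand, hold no run of GGG and were 57.9% G and C.
EEF1A1: ccacagtccccgagaagtt

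Bases inside the peaks were richer in G and C than the rest of the same 5′ UTRs. Peak bases here are only those inside the 5′ UTRs of the labelling transcripts, and parts of peaks outside them were left out. In the 6 lists, 74.8 to 80.9% of peak bases were G or C, against 59.9 to 64.8% of the other bases of the same transcripts' 5′ UTRs. The mean difference was 15.4 ± 1.53 percentage points (SD, n = 6 lists), and peak bases were higher in 6 of 6 lists (exact two-sided sign-flip permutation p = 0.03125, the smallest that 6 lists allow; 0.0547 after Benjamini-Hochberg adjustment over 7 measures). G alone made up 41.4 to 49.3% of peak bases and 30.8 to 35.1% of the rest. C made up 30.2 to 34.9% of peak bases and 28.97 to 30.4% of the rest, so G differed more than C. The comparisons of G and C content and of GGG with the rest of the 5′ UTRs were chosen after the data were seen.

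The run GGG, searched on the RNA strand with overlapping matches counted, started 9.27 times per 100 nt in peak bases and 4.19 times in the rest of the same 5′ UTRs (means of 6 lists). Peak bases were higher in 6 of 6 lists, by 5.08 ± 1.68 per 100 nt (SD; exact sign-flip permutation p = 0.03125, adjusted 0.0547). Of windows of 30 nt, 75.2 to 91.9% held GGG within peaks and 47.5 to 57.1% in the rest. Replicate 1 lists had 10.8 to 11.5 starts per 100 nt in peak bases and replicate 2 lists 6.65 to 7.88, whatever the treatment. Both differences kept their direction in every list when the rest was limited to the same exon or to the first 200 nt of the transcript, settings also chosen then. The lists share sites and are not fully independent. A run of G marks letters in the sequence, not a site that was tested for binding.

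**Figure D3:**
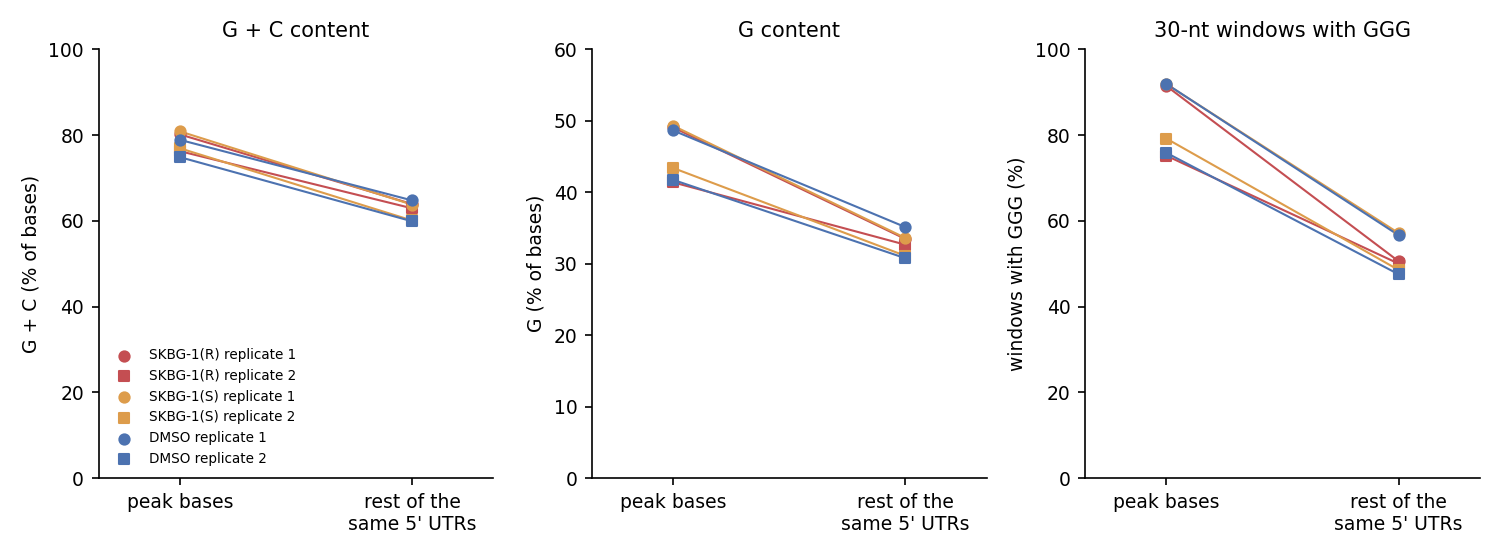
Percent of bases that are G or C (left), percent that are G (middle) and percent of 30-nt windows with GGG (right), in the bases of 5′ UTR peaks and in the rest of the same 5′ UTRs; each line is a list. Peak bases lie above the rest in every list (74.8 to 80.9% G and C in peaks, 59.9 to 64.8% in the rest). Parts of peaks outside the 5′ UTR are not counted.

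Set against all other peaks of the same list, 5′ UTR peaks differed little in strength and width, and neither difference passed the test. Their median log2 enrichment, the authors' value, was 3.66 on average against 3.71 for other peaks, lower in 5 of 6 lists, by 0.04 ± 0.05 (SD; exact sign-flip permutation p = 0.0625, adjusted 0.0875). Their median width was 70.0 nt against 66.7 nt (exact permutation p = 0.125, adjusted 0.146). On average 25.5% of them overlapped a peak of the other list of the same treatment, against 29.8% of other peaks (exact permutation p = 0.469, adjusted 0.469). They lay nearer to the annotated gene start in 6 of 6 lists, at a mean of the list medians of 1828 nt against 7929 nt (exact permutation p = 0.03125, adjusted 0.0547), which the class itself largely fixes.

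Near transcript starts, NONO peaks were sparser in 5′ UTR bases than in the other bases, but denser than over whole genes. In genes with a peak, the middles of peaks of any class fell 157 times per Mb in 5′ UTR bases and 274 times per Mb in other bases within 1000 nt downstream of a coding transcript's start (means of 6 lists). The rate was lower in 5′ UTR bases in 6 of 6 lists (exact sign-flip permutation p = 0.03125, adjusted 0.0547). The ratio was 0.49 and 0.71 with SKBG-1(R), 0.39 and 0.49 with SKBG-1(S), and 0.48 and 0.50 with DMSO. Over all bases of these genes the rate was 4.05 to 89.7 per Mb, against 32.8 to 472 per Mb in 5′ UTR bases, which were higher in 6 of 6 lists; this second difference was not tested. The measure was added after the data were seen.

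Recurrence between replicates was uneven. Of the 54 5′ UTR peaks of DMSO replicate 1, only 7 (13.0%) overlapped a peak of DMSO replicate 2, while 34 (63.0%) overlapped SKBG-1(R) replicate 1 and 27 (50%) SKBG-1(S) replicate 1. With replicate 2 of SKBG-1(R), 44.4% of these peaks overlapped, and with replicate 2 of SKBG-1(S), 46.3%. Other peaks of DMSO replicate 1 overlapped DMSO replicate 2 at 34.96%. With SKBG-1(R), 44.4% of the 5′ UTR peaks of replicate 1 overlapped replicate 2, against 55.3% of its other peaks. With SKBG-1(S) it was 55.4% against 54.3%. From the longer replicate 2 lists back to replicate 1, the share of 5′ UTR peaks was 12.7% with SKBG-1(R), 21.8% with SKBG-1(S) and 5.98% with DMSO. The list of SKBG-1(R) replicate 2, with 14847 peaks the longest, alone held 389 of the 565 regions seen in a single list.

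Merging overlapping 5′ UTR peaks of all lists gave 798 regions. A 5′ UTR peak was found in 1 list for 565 of them, in 2 lists for 124, in 3 for 70, in 4 for 30, in 5 for 7 and in 6 for 2. At 50 regions (6.27%) some list had a peak of another class instead. A region in all 6 lists was that of RHEB, the small GTPase that activates mTORC1.

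At RHEB, chr7:151519024-151519260 on the minus strand, the log2 enrichment was 4.44 and 3.07 with SKBG-1(R), 3.01 and 3.74 with SKBG-1(S), and 3.34 and 3.44 with DMSO. These are the authors' values, each from its own list, and groups are not compared on them.

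Regions in 5 lists lay in LZTS2, SMARCA4, NCOA2, a joint region of ZNF580, ZNF581 and CCDC106, and 3 places in YWHAZ. SMARCA4 encodes an ATPase of SWI/SNF chromatin remodellers, and its region, chr19:10961224-10961485 on the plus strand, had a log2 enrichment of 4.24 and 3.87 with SKBG-1(R), 4.20 and 4.13 with SKBG-1(S), and no peak and 3.10 with DMSO. LZTS2 encodes a leucine zipper protein, and its region, chr10:100999626-101000018 on the plus strand, had no peak and 3.24 with SKBG-1(R), 4.05 and 3.72 with SKBG-1(S), and 4.20 and 4.56 with DMSO. A list without a peak has no value at a place, so its enrichment is unknown and not 0.

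For SKBG-1(R), 14 regions held a 5′ UTR peak in both lists and in no other list, and 13 of them had no peak of any class elsewhere. SKBG-1(S) had 0 such regions and DMSO had 1, in SBNO2. List length moves with these counts, and its part in them was not tested. By the weaker of their values, the 5 strongest SKBG-1(R) regions were in UNKL, PLXNB1, HDLBP, DYRK1A and CHD7, with log2 enrichments of 3.75 and 4.46, 3.50 and 4.95, 3.60 and 3.48, 3.48 and 3.58, and 3.43 and 5.28 in replicates 1 and 2. PLXNB1 encodes a semaphorin receptor, DYRK1A a protein kinase and CHD7 a chromatin remodeller. UNKL held 160 peaks in all, of which 8 were 5′ UTR, 41 lay in introns within 500 nt of a splice site and 103 in deeper intron. The SBNO2 region, chr19:1173656-1173792 on the minus strand, had 3.54 and 5.24 with DMSO.

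The peaks fell in 389 genes of 1689 with any peak. There were 96 and 288 genes with SKBG-1(R), 47 and 153 with SKBG-1(S) and 42 and 128 with DMSO. Of the 389 genes, 207 had a 5′ UTR peak in 1 list only and 4 in all 6, among them MATR3, RHEB and YWHAZ. A single 5′ UTR peak was seen for 168 genes, while 26 genes with at least 10 held 389 peaks (28.99%). Introns of the same gene held a peak for 319 genes (82.0%), and 64 genes had 5′ UTR peaks only. Both lists of a treatment held 66 genes with SKBG-1(R), 31 with SKBG-1(S) and 15 with DMSO. SKBG-1(R) and DMSO shared 8 of these, 12.1% and 53.3% of their genes, and SKBG-1(R) and SKBG-1(S) shared 18, 27.3% and 58.1% of their genes. SKBG-1(S) and DMSO shared 6, 19.4% and 40% of theirs. With lists cut to equal size the counts were 6, 15 and 7 genes for SKBG-1(R), SKBG-1(S) and DMSO. The order of the sharing turned there: SKBG-1(S) and DMSO shared 5 genes (33.3% and 71.4%), SKBG-1(R) and SKBG-1(S) shared 2 (33.3% and 13.3%), and SKBG-1(R) and DMSO shared 1 (16.7% and 14.3%).

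YWHAZ, which encodes the signalling adaptor 14-3-3 zeta, had the most 5′ UTR peaks. It held 11 and 11 with SKBG-1(R), 7 and 6 with SKBG-1(S), and 3 and 3 with DMSO, 41 of its 66 peaks in all. Joined within 50 nt, the numbers were 6 and 5 with SKBG-1(R), 3 and 4 with SKBG-1(S), and 3 and 3 with DMSO. Raw numbers also follow list length, and per 10000 peaks the groups overlapped. The peaks spread over chr8:100950476-100952307, where several alternative first exons lie.

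MBD3, a subunit of the NuRD deacetylase complex, had 8 and 7 peaks with SKBG-1(R), 5 and 3 with SKBG-1(S), and 3 and 0 with DMSO (ENSG00000071655.17, chr19:1585263-1592790). CIC, a transcriptional repressor downstream of receptor tyrosine kinases, held 2 and 9, 0 and 9, and 0 and 2. Joined within 50 nt, CIC had 1 and 1 with SKBG-1(R), 0 and 1 with SKBG-1(S), and 0 and 2 with DMSO, so that a DMSO list was then the highest. NCOA2, a coactivator of steroid receptors, held 4 and 8, 1 and 4, and 0 and 3, and joined 3 and 1, 1 and 1, and 0 and 1. In all 3 genes the DMSO numbers overlapped those with SKBG-1(S). These raw numbers also follow list length. Per 10000 peaks, SKBG-1(R) and DMSO overlapped in MBD3 (41.0 and 4.71 against 44.8 and 0). They also overlapped in NCOA2 (20.5 and 5.39 against 0 and 8.16), but not in CIC (10.2 and 6.06 against 0 and 5.44).

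LZTS2 had 0 and 6 peaks with SKBG-1(R), 3 and 5 with SKBG-1(S), and 1 and 8 with DMSO. TNK2, a cytoplasmic tyrosine kinase, held 0 and 7, 4 and 6, and 3 and 0. ZFHX3, a zinc-finger homeobox transcription factor, held 3 and 7, 0 and 3, and 0 and 4. KMT5B, a histone H4 lysine methyltransferase, held 1 and 5, 1 and 6, and 0 and 3. HDLBP, which encodes the RNA-binding protein vigilin, held 2 and 6, 0 and 3, and 0 and 4. In ZFHX3, KMT5B and HDLBP the raw number of replicate 2 exceeded that of replicate 1 in every group, and the replicate 2 lists were also longer. Per 10000 peaks this order turned with SKBG-1(R): 15.4 and 4.71 for ZFHX3, 5.12 and 3.37 for KMT5B, and 10.2 and 4.04 for HDLBP. It stayed the same with SKBG-1(S) and DMSO.

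SEPT9, a septin of the cytoskeleton, showed how far a single list can carry a gene. It had 0 and 17 peaks with SKBG-1(R), 0 and 1 with SKBG-1(S), and 0 and 1 with DMSO. C9orf69 held 12 peaks, all in replicate 2 of SKBG-1(R), and with a log2 enrichment of 6.29 had the highest value of any 5′ UTR peak; it was named after its values were seen. Neither gene had a 5′ UTR peak in any replicate 1 list.

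**Figure D4:**
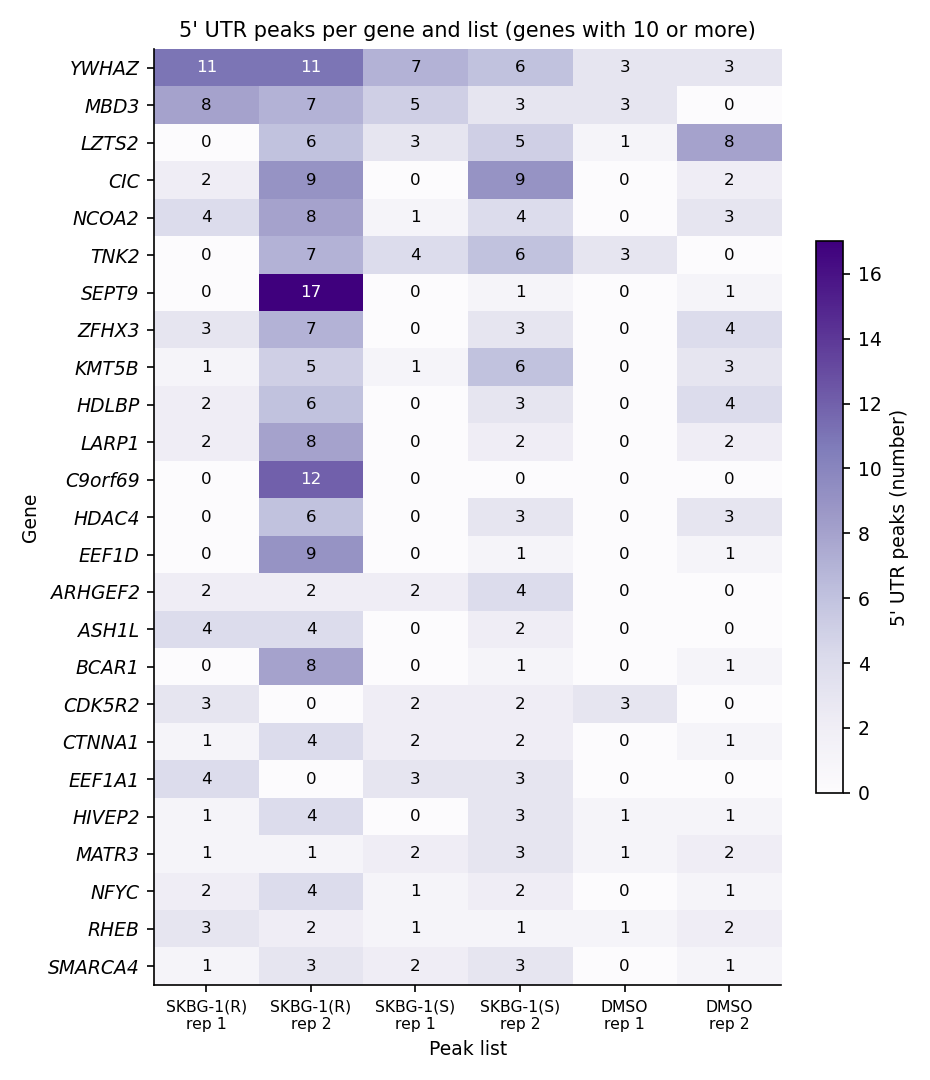
Number of 5′ UTR peaks per list for 25 of the 26 genes with at least 10, ordered by their total; darker cells hold more peaks. YWHAZ has 3 to 11 in every list, while SEPT9 (17) and C9orf69 (12) have most or all of theirs in replicate 2 of SKBG-1(R).

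To compare treatments across genes, peaks of a gene in a class were counted per 10000 peaks of the list and tested as log2 values, after adding a prior count of 2, with limma over 531 gene and class units of which 26 were 5′ UTR units. For SKBG-1(R) against DMSO, 0 of 26 5′ UTR units passed a Benjamini-Hochberg adjusted p of 0.05 (smallest adjusted p 0.988), against 0.188% of all units, and 0 had an unadjusted p below 0.05, against 2.64% of all units. For SKBG-1(S) against DMSO, 0 of 26 passed (smallest adjusted p 1), against 0% of all units, and 0 had an unadjusted p below 0.05, against 0.377%. For SKBG-1(R) against SKBG-1(S), 0 of 26 passed (smallest adjusted p 0.991), against 0% of all units, and 0 had an unadjusted p below 0.05, against 0.942%. The 95% interval of a 5′ UTR unit in log2 peaks per 10000 reached a median of 2.18 to either side. SKBG-1(R) and SKBG-1(S) are set against the same DMSO lists. Without SKBG-1(R) replicate 1, 26 of 460 units passed in each comparison with SKBG-1(R), and 1 of these was a 5′ UTR unit, C9orf69, whose peaks were all in the remaining list. That lone list was assumed to vary like the other groups.

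The lists of the groups did not overlap for few units. For SKBG-1(R) against DMSO, 3 of 26 were higher in both lists, against 11.3% of all units, and 2 were lower, against 9.6%. For SKBG-1(S) against DMSO, 5 were higher, against 11.7%, and 0 lower, against 5.27%. For SKBG-1(R) against SKBG-1(S), 1 was higher, against 5.08%, and 5 were lower, against 15.8%. The median log2 difference of 5′ UTR units was 0.44, 0.09 and -0.01 in the 3 comparisons in that order, and that of all units 0.20, 0.09 and -0.07.

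ASH1L, a histone lysine methyltransferase, had the smallest p of the 5′ UTR units higher with SKBG-1(R) than with DMSO. There were 4 and 4 peaks with SKBG-1(R), against 0 and 0 with DMSO, a log2 difference of 1.56 (95% interval -0.41 to 3.54, limma adjusted p = 0.988). SKBG-1(S) had 0 and 2. Joined within 50 nt, ASH1L had 2 and 1 with SKBG-1(R), 0 and 1 with SKBG-1(S), and 0 and 0 with DMSO. With a prior count of 0.5 the difference from DMSO was 2.999. All 10 of its peaks were of the 5′ UTR class.

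ARHGEF2, which encodes a microtubule-bound activator of RhoA, had 2 and 2 peaks with SKBG-1(R), 2 and 4 with SKBG-1(S), and 0 and 0 with DMSO. The log2 difference from DMSO was 1.04 (-1.08 to 3.15, limma adjusted p = 0.988) for SKBG-1(R) and 1.94 (-0.18 to 4.05, limma adjusted p = 1) for SKBG-1(S). Both compounds had peaks in both lists where DMSO had none.

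EEF1A1 differed from DMSO by 2.04 with SKBG-1(S) (-0.22 to 4.30, limma adjusted p = 1), from the slices of the single stretch described above. SMARCA4 differed by 1.46 (-0.64 to 3.56, limma adjusted p = 1) and CTNNA1, which encodes alpha-catenin of cell junctions, by 1.29 (-0.80 to 3.38, limma adjusted p = 1) with SKBG-1(S) against DMSO. Without scaling for list length these 3 differences were 1.32, 0.87 and 0.71. CTNNA1 held 2 and 2 peaks with SKBG-1(S) and 0 and 1 with DMSO.

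LZTS2 had the lowest value of the 26 5′ UTR units for SKBG-1(R) against DMSO, -1.86 on the log2 scale (-4.07 to 0.36, limma adjusted p = 0.988). Without scaling for list length it was -0.45, and with peaks within 50 nt counted once -1.31. Joined in this way, LZTS2 had 0 and 2 peaks with SKBG-1(R), 2 and 4 with SKBG-1(S), and 1 and 2 with DMSO.

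Between the stereoisomers, TNK2 differed by -2.05 (SKBG-1(R) minus SKBG-1(S), 95% interval -4.49 to 0.38), LZTS2 by -1.83 (-4.05 to 0.39), SMARCA4 by -0.99 (-3.09 to 1.11) and LARP1, which binds TOP mRNAs, by 0.88 (-1.17 to 2.92), with a limma adjusted p of 0.991 for each. Without scaling TNK2 was -0.71, LZTS2 -0.56 and SMARCA4 -0.21, and with a −log10 p of at least 5 TNK2 was -0.38. LARP1 was 0.36 without SKBG-1(S) replicate 1 and 1.43 without SKBG-1(S) replicate 2. LARP1 had 2 and 8 peaks with SKBG-1(R), 0 and 2 with SKBG-1(S), and 0 and 2 with DMSO. None of these intervals leaves out 0, and none is narrow enough to show that the stereoisomers act alike.

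**Figure D5:**
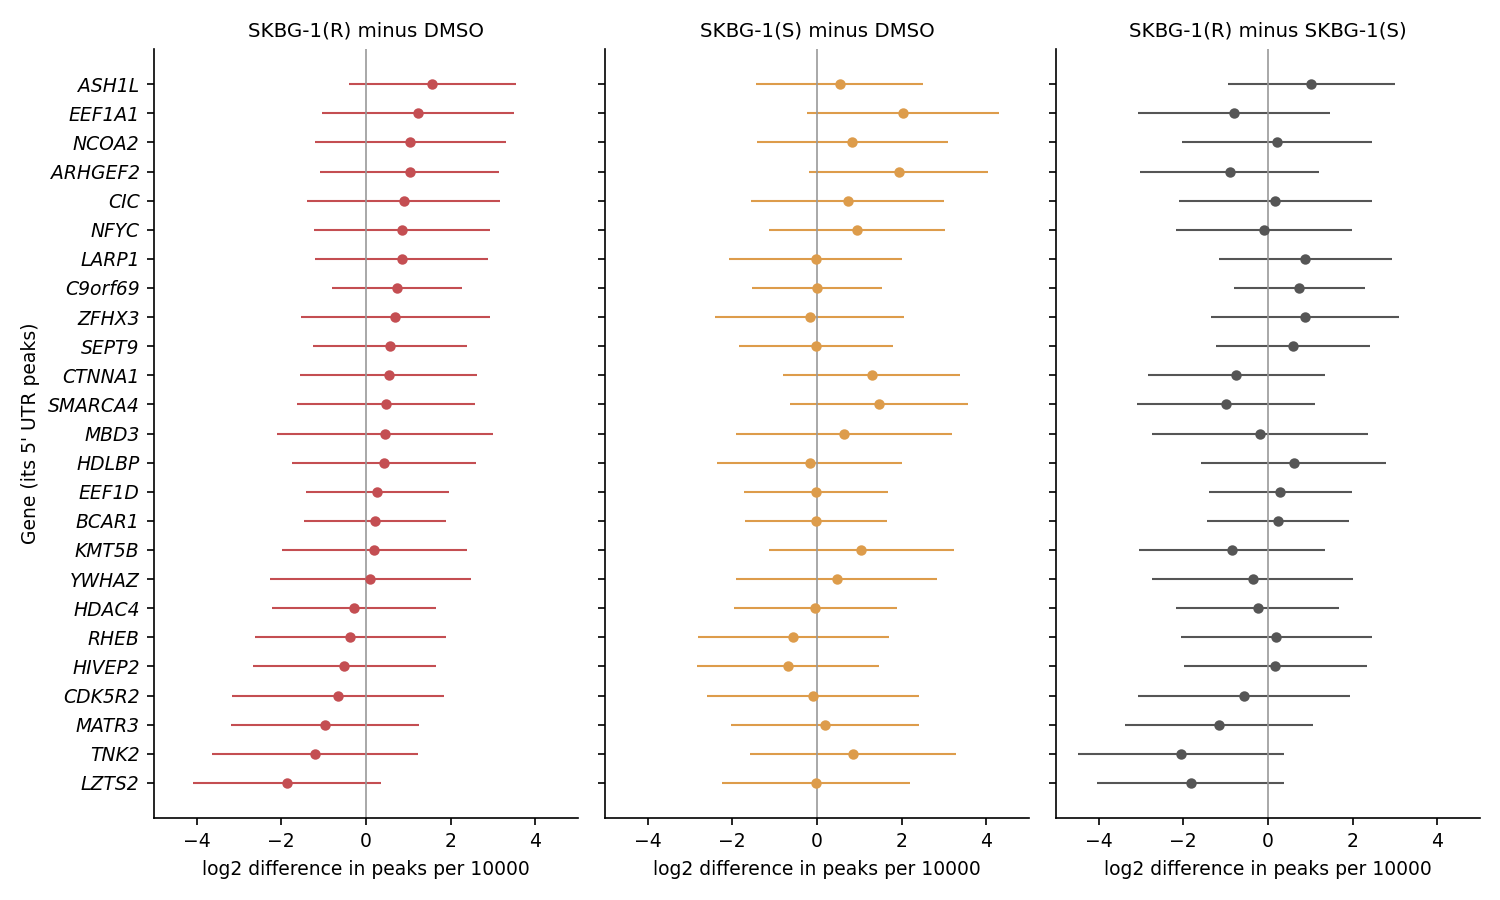
Log2 difference in peaks per 10000 peaks (points) with 95% limma intervals (lines) for 25 of the 26 genes with a tested 5′ UTR unit, in SKBG-1(R) minus DMSO, SKBG-1(S) minus DMSO and SKBG-1(R) minus SKBG-1(S). Every interval spans 0; ASH1L (1.56) and LZTS2 (-1.86) lie farthest apart in the first panel.

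A 5′ UTR peak was found for 389 of the 1689 genes with any peak (23.0%), and the counts of gene groups that follow are given without a test of differences between them. Of 39 chromatin and transcription regulators, 22 had any peak and 10 had a 5′ UTR peak, 50 peaks in all, among them ANKRD11 with 8. Of the ANKRD11 peaks, 7 were in replicate 2 of SKBG-1(R). Of 22 paraspeckle and DBHS genes, 7 had any peak and 3 had 5′ UTR peaks: MATR3 and SMARCA4 with 10 each, and DAZAP1 with 2, both in replicate 2 of SKBG-1(R). MATR3, a nuclear matrix RNA-binding protein, held 1 and 1 with SKBG-1(R), 2 and 3 with SKBG-1(S), and 1 and 2 with DMSO. The NONO gene had 0 peaks of any class. Of 38 splicing factors, 9 had any peak and only HNRNPF, whose protein binds G-runs, had 5′ UTR peaks, 0 and 3, 0 and 4, and 0 and 2.

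Of 27 prostate genes, 13 had any peak and 5 had 5′ UTR peaks: NCOA2, ZFHX3, PMEPA1, ZBTB16 and NCOA1, 48 peaks in all. The prostate epithelial markers KLK2, KLK3, FOXA1 and HOXB13 had no 5′ UTR peak. PMEPA1, a TGF-beta-induced feedback regulator, held 1 and 6 with SKBG-1(R) and 0 in the other 4 lists, out of 342 peaks of all classes in the gene. In the TGF-beta list of 18 genes, 5 had any peak, and PMEPA1, SMAD2 and SMAD6 had 5′ UTR peaks. Of 34 genes of amino acid transport and ATF4-linked stress, 7 had any peak, and TRIB3 and SLC6A9 had 5′ UTR peaks. TRIB3, a stress-induced pseudokinase, held 2 and 3 with SKBG-1(R), 1 and 3 with SKBG-1(S), and 0 and 0 with DMSO. It was below the minimum of 10 peaks of the limma test above.

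Of 26 genes listed for their TOP mRNAs, EEF1A1 and NAP1L1 were the only members with any peak, and both had 5′ UTR peaks. The ribosomal protein members had none. The EEF1A1 stretch is 5′ UTR in 1 of 4 overlapping transcripts. Whether the peaks of either gene lie in the 5′ UTR of its TOP form was not examined. Of 22 cytoskeleton genes 9 had any peak and 5 had 5′ UTR peaks (ARHGEF2, PLEC, ACTN1, MYH9 and ACTB). Among 29 zinc-finger and homeobox factors 12 had any peak and 5 had 5′ UTR peaks (ZFHX3, ZBTB7A, NFIX, ZFPM1 and ZBTB16). Among 23 cell cycle genes 3 had any peak and 1 had 5′ UTR peaks, E2F3, with 1 peak in replicate 2 of each compound. None of 15 neuroendocrine markers and none of 21 markers of other cell types had a 5′ UTR peak. Only 1 of the neuroendocrine markers and 0 of the markers of other cell types had a peak of any class, so these counts say little about the 5′ UTR class. A peak list gives no expression level, so a gene without a peak may be unexpressed, unbound or below the authors' limits.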

How the data were processed

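Each list came from 1 NONO eCLIP library of 22Rv1 cells, crosslinked with 400 mJ of UV, against its own input; groups were taken from the sample titles. The authors deposited a −log10 p and a log2 enrichment of immunoprecipitated over input reads per peak, with minimums of 3, and an annotation of each peak. Tests used these values only within a list, and values of several lists at one place are given side by side without a test. The submitters' processing notes name STAR 2.4.0i and cutadapt 1.9. The peak caller is not given in the sources used here. Coordinates were taken as GRCh38 because 2153 of 2171 annotated 5′ UTR intervals (99.2%) were identical in GENCODE 29, whose transcripts gave positions and sequence. No genome was used.

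Single values were compared by exact permutation tests, and 5′ UTR peaks with other peaks of the same list by exact sign-flip tests over 6 lists. Gene and class units with at least 10 peaks were tested with limma 3.58.1 in R 4.3.3, all 6 lists in 1 fit with a trended prior variance, at a Benjamini-Hochberg threshold of 0.05. Regions merge peaks that overlap by at least 1 nt on the same strand. Alternatives were stricter limits, lists of equal size, joined peaks, other scalings, a replicate block and leaving out each list. Named genes are the 10 with most 5′ UTR peaks, those in all 6 lists, the 5 highest and lowest units per comparison by p, up to 4 members of each gene list and the strongest regions of a single group. Some genes that meet this rule are not reported here. The members and lists were chosen with earlier results of these data known.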

Additional observations from a re-analysis of the deposited data

Results flagged for a closer look

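The share of 5′ UTR peaks that overlap the other list of the same treatment, minus the same share of all other peaks, lay above 0 in both SKBG-1(S) lists (1.15 and 3.28 percentage points) and below 0 in both DMSO lists (-22.0 and -0.92). The groups' means differ by 13.7 points. This difference between SKBG-1(S) and DMSO was not tested, and most of it comes from DMSO replicate 1, where 7 of 54 5′ UTR peaks overlapped replicate 2.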

How the results depend on the processing

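With lists cut to 669 peaks the log2 differences in number were -0.57 (SKBG-1(R) against DMSO), -0.00896 (SKBG-1(S) against DMSO) and -0.56 (SKBG-1(R) against SKBG-1(S)), and the share of SKBG-1(R) minus SKBG-1(S) was -0.67 points. Keeping peaks whose −log10 p was 5 or more, the 3 share differences were 0.0945, 0.17 and -0.0755, and with a log2 enrichment of at least 4 the last was -0.26. Peaks that every transcript places in the 5′ UTR gave a share difference of 0.18 (SKBG-1(R) against DMSO), a log2 number difference of -0.16 (SKBG-1(S) against DMSO), a log2 enrichment 0.10 higher and a width 17.5 nt smaller (-17.5) than other peaks. Leaving out 1 list, the share differences ran from -2.24 to 1.30, -2.07 to 1.001 and -1.71 to 1.83, and the log2 number of SKBG-1(S) against DMSO from -0.47 to 1.30.

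At a log2 enrichment of at least 4, 5′ UTR peaks were 0.0522 higher in median enrichment. In that setting 5 measures reached an adjusted sign-flip p of 0.0437: overlap -6.33 points, distance from the gene start -4808 nt, G and C content 14.2 points, GGG starts 4.95 per 100 nt and density -41.7 per Mb. The class itself largely fixes the distance from the gene start, which was among the 7 measures adjusted together and so lowers the adjusted p of the others. The 1 unit called for SKBG-1(R) against DMSO became 0 with both stricter limits, equal lists, joined peaks, TMM scaling, no scaling and without SKBG-1(R) replicate 2, SKBG-1(S) replicate 1 or DMSO replicate 1. Leaving out each list gave 0 to 26 called units and 0 to 1 5′ UTR units in both SKBG-1(R) comparisons. Without scaling HIVEP2 was 0.50 for SKBG-1(R) against DMSO, and the median of all units moved to 1 there, 0.18 for SKBG-1(S) against DMSO and 0.71 between the stereoisomers. The causes were not tested.

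Same-numbered lists deviated together (correlations 0.45 to 0.59 over 531 units), but share only a number. With the replicate number as a block the exact p of the log2 number was 0.5 in all 3 comparisons, 1 unit was called for SKBG-1(R) against DMSO as without it, and no 5′ UTR unit was called. The comparison of G and C content and of GGG with all other peaks was not run, because no genome was used. Read depth is unknown, and what it limits was not tested.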
